A study of Mus musculus with 12 samples.

Results

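The genes of polyamine synthesis and catabolism were followed across 4 Foxo1 genotypes of a mouse lymphoma cell line. The 9 listed genes were Odc1, Amd1, Srm and Sms, which make polyamines, and Smox, Sat1, Azin1, Oaz1 and Oaz2, which oxidise, acetylate or control them. All of their probe sets were taken by the symbol in the platform annotation. Of the 9 genes, 7 had a probe set of their own, and all 7 passed the filter on low values that left 11457 of 18193 genes. They held 14 probe sets of the 45101 on the array. Sms was read only through 3 probe sets shared with the pseudogene Sms-ps, so its values are uncertain and stay outside the counts of genes, and 1 more probe set was shared by Oaz1 and Oaz1-ps. Amd1 was not analysed here. The synthesis side therefore rested on Odc1 and Srm, 2 of 4 listed enzymes, and the catabolic and regulatory side on 5 of 5 genes. The genes were chosen by their role, at a time when earlier results of these arrays were known. Among those results was the higher level of Srm without both alleles, so the changes of Srm are given as a description, without a p-value. Where Srm is said to be called or not, this too only describes the counts and is no test of its rise.

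The line, BL#19, is labelled as a murine Burkitt lymphoma, a tumour of B cells, and it was edited with CRISPR/Cas9. Foxo1 encodes a forkhead transcription factor that leaves the nucleus when AKT phosphorylates it. In the labels' code, wt is the wild-type allele and mt the allele with the substitution T24P, and a minus sign marks its knockout. The 4 genotypes were wt+/mt+, with both alleles; wt-/mt+, with the mutant allele alone; wt+/mt-, with the wild-type allele alone; and wt-/mt-, with neither. Each had 3 arrays of total RNA, called replicates 1 to 3 in the order of their numbers. All 12 arrays share the line and its tumour background, although 1 label field speaks of germinal center B cells. Nothing in the labels tells whether the arrays within a genotype hold separate clones, separate cultures or 1 culture. The p-values therefore cover only the spread seen among these arrays, possibly a technical one, and a genotype may be 1 clone. Medians of whole chromosomes, given with Odc1 below, differed between the wt-/mt- arrays. Whether these arrays hold different cells was not tested. In bulk RNA, fewer cells expressing a gene and less RNA per cell cannot be told apart.

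Polyamines are small, positively charged molecules that bind nucleic acids and are needed for translation and cell division. Odc1, ornithine decarboxylase, makes putrescine. Srm adds an aminopropyl group to give spermidine, and Sms adds another to give spermine, with decarboxylated S-adenosylmethionine from Amd1 as the donor. Smox oxidises spermine back to spermidine, and Sat1 acetylates spermidine and spermine for export or breakdown. The antizymes Oaz1 and Oaz2 bind ornithine decarboxylase and deliver it to the proteasome, and the antizyme inhibitor Azin1 frees it from them. Antizyme is made through a frameshift that polyamines promote, so much of this control acts after transcription and is not read by an RNA array.

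RefSeq (GRCm38.p6) gave the 250 bases upstream of the start for 7 of the 9 genes; Srm and Azin1 had no entry. The windows of Smox and Odc1 are shown because, in the probe set that stands for each gene, these 2 members separated the arrays completely by the mutant allele, in opposite directions; the other 2 Odc1 sets did not. The upstream one of 2 Sms windows is shown because it alone held a searched motif. Smox lies at chr2:131491612-131491861 (plus strand), Odc1 at chr12:17544623-17544872 (plus strand) and Sms at chrX:157492288-157492537 (minus strand), and each run reads 5′ to 3′ toward the start. Capitals mark an E-box, CACGTG, the site of many basic helix-loop-helix factors.
Smox: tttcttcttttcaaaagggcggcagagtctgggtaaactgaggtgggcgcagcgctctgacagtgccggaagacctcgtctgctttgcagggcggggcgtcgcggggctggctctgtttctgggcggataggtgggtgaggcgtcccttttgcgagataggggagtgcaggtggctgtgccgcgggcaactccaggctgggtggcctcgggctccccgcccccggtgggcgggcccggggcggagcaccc
Odc1: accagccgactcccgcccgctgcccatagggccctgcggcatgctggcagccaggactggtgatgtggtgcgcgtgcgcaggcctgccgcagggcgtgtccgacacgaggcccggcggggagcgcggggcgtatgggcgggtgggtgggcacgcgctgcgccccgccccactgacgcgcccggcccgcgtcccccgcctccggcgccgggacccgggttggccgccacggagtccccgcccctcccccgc
Sms: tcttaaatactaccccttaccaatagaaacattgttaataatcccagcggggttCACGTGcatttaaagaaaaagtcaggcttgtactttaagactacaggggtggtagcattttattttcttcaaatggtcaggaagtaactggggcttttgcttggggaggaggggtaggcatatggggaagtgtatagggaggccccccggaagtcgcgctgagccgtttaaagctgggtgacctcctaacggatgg
The E-box was searched on both strands, as was GTAAACA, a core letter string of forkhead sites. The E-box stood in 6.02% of 32851 promoter windows of this length and GTAAACA in 3.17%. Among the members the only match was the Sms E-box, 196 bases upstream of the start. The absence of these letters from the other windows says nothing of whether a factor binds there.

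Levels below are deposited log2 values and changes are log2 differences, with SD over 3 arrays for a level and the standard error (SE) of the fit for a difference. A gene was called at an adjusted p under 0.05 in limma, over all 11457 genes. Probe sets differ in how well they bind, so a level is compared only with the same probe set on other arrays. Foxo1 itself lay at 11.64 ± 0.077 (SD, n = 3) with both alleles and at 9.99 ± 0.52 with neither, and fell by 1.65 without both alleles (SE 0.23, limma adjusted p = 0.00122). The sources used here do not give where in the gene the edits lie, so the Foxo1 level checks the wt-/mt- label in part and the single losses not at all. B cell markers ranged from 6.81 to 14.88 over 6 of 7 listed genes, while 5 T cell, 6 myeloid, 2 erythroid and 4 stromal markers stayed at or below 7.06, 7.42, 6.00 and 6.45. After loss of both alleles 2 of 6 B cell, 1 of 4 germinal center and 1 of 3 plasma cell markers that passed the filter were called lower. Of all genes 22.1% were called there, in either direction. Of the other lists only 3 T cell, 2 myeloid, 0 erythroid and 1 stromal marker passed the filter and could be called, and 0 were. The level of the B cell markers summed on the linear scale was 16.04 to 16.09 in wt+/mt+ and 15.37 to 15.90 in wt-/mt-, the germinal center level 13.88 to 14.02 and 12.78 to 13.86, and the plasma cell level 14.90 to 15.02 and 13.51 to 14.24. In the same order the T cell level was 8.51 to 8.62 and 8.66 to 8.71, and the stromal level 7.44 to 7.66 and 7.78 to 8.01 (log2), the myeloid level 8.68 to 8.76 and 8.58 to 8.85, and the erythroid level 6.33 to 6.50 and 6.09 to 6.41. Their part in the results below was not tested. Array medians lay between 6.080 and 6.187 on the mt+ arrays and between 6.195 and 6.252 on the mt- arrays, without overlap. The wt-/mt- arrays were the least alike, with a median SD over genes of 0.261 against 0.0952 to 0.133 in the other genotypes. The main fit took a single spread for all genotypes. Its SEs and p-values can therefore be too small in comparisons with wt-/mt- and too large in those without it.

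In the fit of all 12 arrays, loss of both alleles went with higher Srm and Smox and with no member called lower, a tally that changed with the processing: Oaz2 was called lower with each array centred on its median (-0.51, limma adjusted p = 0.0353), where Srm was no longer called. Srm and Smox were 2 of 7 members, 28.6%, against 22.1% of all genes called in that comparison, so the share of members was near that of the array. Srm stands in these counts and in those below only as a description, since its rise was known. Apart from Srm, only Smox was called here. Of the 7, 6 had an unadjusted p under 0.05, Srm among them. The share of all genes at that unadjusted threshold was not counted, so such counts say nothing particular of the members here and below. The median change of the 7 was -0.12 against 0.051 over all genes. Losing the wild-type allele where the mutant allele was already absent gave 1 call of 7 (14.3%), Azin1, against 14.6% of genes. Losing the mutant allele where the wild-type allele was absent gave 2 of 7 (28.6%), Srm and Smox, against 20.8%. Losing the mutant allele with the wild-type allele present gave 1 of 7, Smox, in a comparison that called 0.183% of all genes (21). Losing the wild-type allele with the mutant allele present called 0% of genes, and 0 of 7 members there had an unadjusted p under 0.05 in limma. Between the lines with a single allele, mutant (wt-/mt+) against wild-type (wt+/mt-), limma called 0.0873% of genes and 0 of 7 members, with 1 member, Smox, at an unadjusted p under 0.05. The interaction of both losses called 3.14% of genes and 0 of 7 members. The 1 member at an unadjusted p under 0.05 was Srm, whose rise was known, so it too stands only as a description. These comparisons share arrays, so their counts are not independent of each other.

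**Figure D1:**
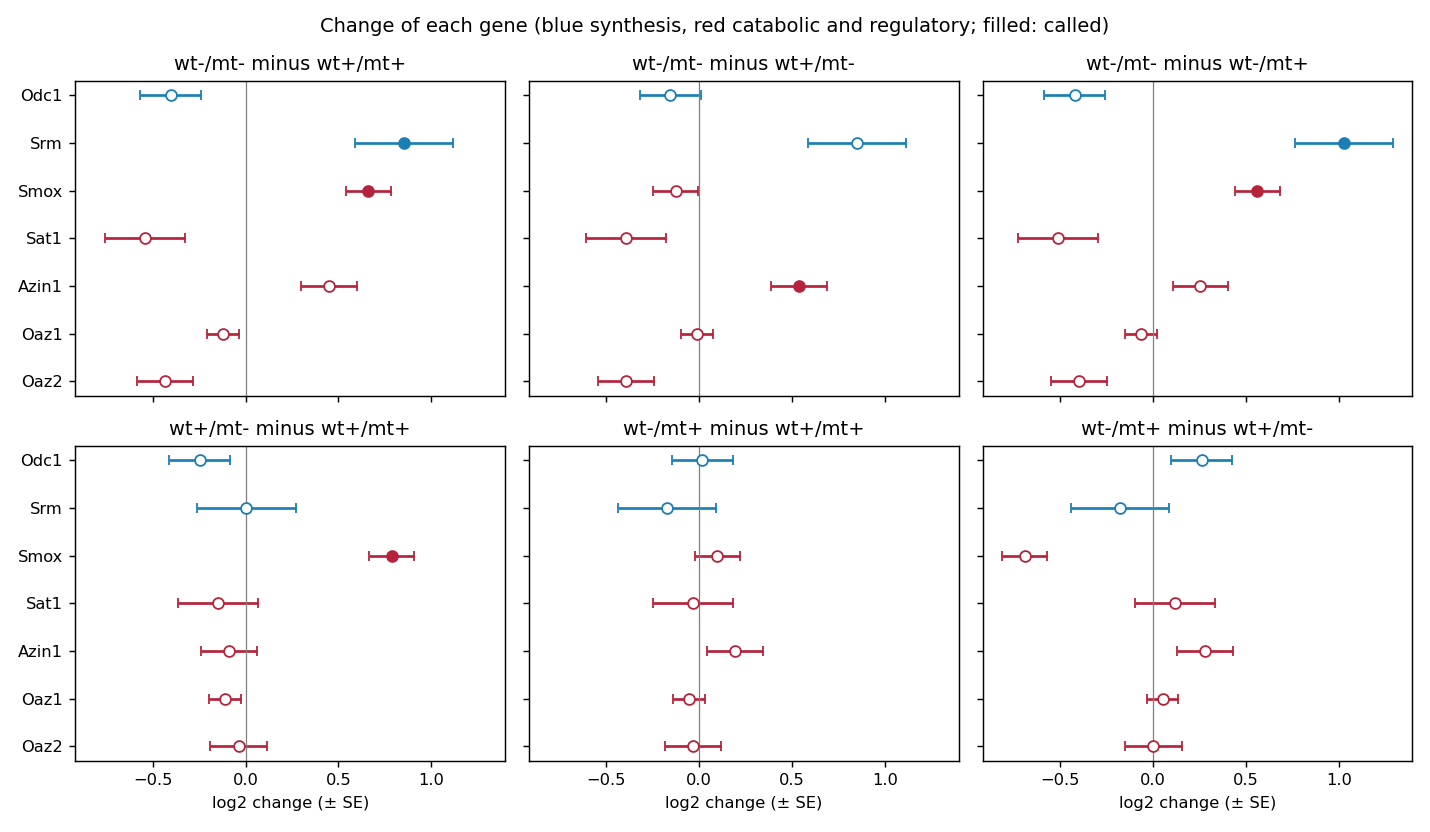
Log2 change (x axis, with SE as bars) of the 7 polyamine genes with their own probe set in 6 comparisons of genotypes, 3 arrays each. Blue marks the synthesis enzymes Odc1 and Srm, red the catabolic and regulatory genes, and filled points were called, for Srm as a description only. Srm and Smox lie furthest to the right after loss of both alleles, at 0.85 and 0.66, and the panel for loss of the wild-type allele with the mutant allele present runs only from -0.17 to 0.19.

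Srm, spermidine synthase, was highest in the 3 wt-/mt- arrays. Its level was 11.37, 11.07 and 11.35 in wt+/mt+, 11.12, 11.01 and 11.14 in wt-/mt+, 10.93, 11.49 and 11.39 in wt+/mt-, and 11.79, 12.85 and 11.71 in wt-/mt-. All 3 wt-/mt- arrays lay above the other 9, which 7.08% of genes also showed, and the other 3 genotypes overlapped. No member (0 of 7) had its wt-/mt- arrays below the other 9, as 8.43% of genes did. The wt-/mt- mean of 12.12 ± 0.64 leaned on replicate 2, which stood well above both others. Srm was 0.85 higher than in wt+/mt+ (SE 0.26, 1.81-fold), 0.85 higher than in wt+/mt- (SE 0.26, not called) and 1.03 higher than in wt-/mt+ (SE 0.26, 2.04-fold). With the other allele present, losing the mutant allele changed Srm by 0.0049 and losing the wild-type allele by -0.17. Without wt-/mt- replicate 2 the differences were 0.49 from wt+/mt+, no longer called, 0.48 from wt+/mt- and 0.66 from wt-/mt+. Over 23 alternatives the difference from wt+/mt+ lay between 0.49 and 1.06 and that from wt-/mt+ between 0.66 and 1.23. Whether Srm entered the counts of called genes depended on single arrays: against wt+/mt+ it left them in 14 of the 23, among them those without any 1 of the wt+/mt+ or wt-/mt+ arrays, wt+/mt- replicates 2 or 3, or wt-/mt- replicate 2, and against wt-/mt+ in 4, among them those without any 1 of the wt-/mt+ arrays. Over the 703 genes of chromosome 4, where Srm lies, the median deviation from the wt+/mt+ mean was 0.087, 0.049 and 0.031 in the 3 wt-/mt- arrays, against 0.53, 1.59 and 0.44 for Srm.

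The kept genes whose levels followed Srm most closely over the 12 arrays were Mcrip2 (Pearson r = 0.97), Shmt2, the mitochondrial serine hydroxymethyltransferase (0.97), Cops7a (0.96), Dhrs13 (0.96) and Slc7a5, a transporter of large neutral amino acids (0.95). They lie on chromosomes 17, 10, 6, 11 and 8, none with Srm. The 12 points fall into genotypes, and wt-/mt- replicate 2 carries much of Srm's range, so these values describe the arrays only.

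Odc1, which makes the first polyamine, was not called, and the estimate from the set that stands for it was opposite in sign to that of Srm. Its brightest probe set gave 13.18, 13.15 and 13.17 in wt+/mt+, 13.19, 13.13 and 13.24 in wt-/mt+, 12.80, 13.05 and 12.90 in wt+/mt-, and 12.32, 13.07 and 12.90 in wt-/mt-. All 6 arrays without the mutant allele lay below all 6 with it, as for 2.96% of genes, but the groups nearly touched, at 13.07 and 13.13. Spiked controls described with Smox below split the arrays in the same way. The change without both alleles was -0.40 (SE 0.16, limma adjusted p = 0.0970), and losing the mutant allele gave -0.42 where the wild-type allele was absent (SE 0.16, adjusted p = 0.0911) and -0.25 where it was present (SE 0.16, adjusted p = 0.555). The other 2 Odc1 probe sets did not separate the arrays: after loss of both alleles they changed by -0.22 (SE 0.22) and 0.041 (SE 0.30).

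The low value of Odc1 in wt-/mt- replicate 1 came with a low chromosome 12, where the gene lies. In that array Odc1 was 0.85 below the wt+/mt+ mean (a deviation of -0.85), and the median deviation of the 416 chromosome 12 genes was -0.66. Of those genes 78.4% lay below their wt+/mt+ mean there, against 45.1% of all genes, and chromosome 12 was the lowest of 20 chromosomes, the next lowest at -0.31. In the other 11 arrays the chromosome 12 median lay between -0.051 and 0.075. Other chromosomes differed between the wt-/mt- arrays too. In replicate 3 the lowest was chromosome 8, at -0.27, and in replicate 2 chromosome 18, at -0.026. The highest chromosome median was 0.15, 0.33 and 0.34 in replicates 1, 2 and 3 of wt-/mt-. In the arrays of the other genotypes no chromosome median lay below -0.052 or above 0.095. In wt-/mt- replicates 2 and 3 Odc1 deviated by -0.093 and -0.26, and in the 3 wt+/mt- arrays by -0.36, -0.11 and -0.26, with chromosome 12 medians of 0.029, 0.029 and 0.075 in the latter. Without wt-/mt- replicate 1 the change of Odc1 after loss of both alleles was -0.18 (limma adjusted p = 0.219), and with each chromosome centred on its own median it was -0.12 (limma adjusted p = 0.406). Without replicate 2 it was -0.56 and called (limma adjusted p = 0.0244). Of the 5 genes most like Odc1 over the 12 arrays, Rbm25, Ywhaq and Scfd1 (Pearson r = 0.93 each) lie on chromosome 12 too, while Rint1 (0.94) and Zcchc10 (0.92) do not.

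**Figure D2:**
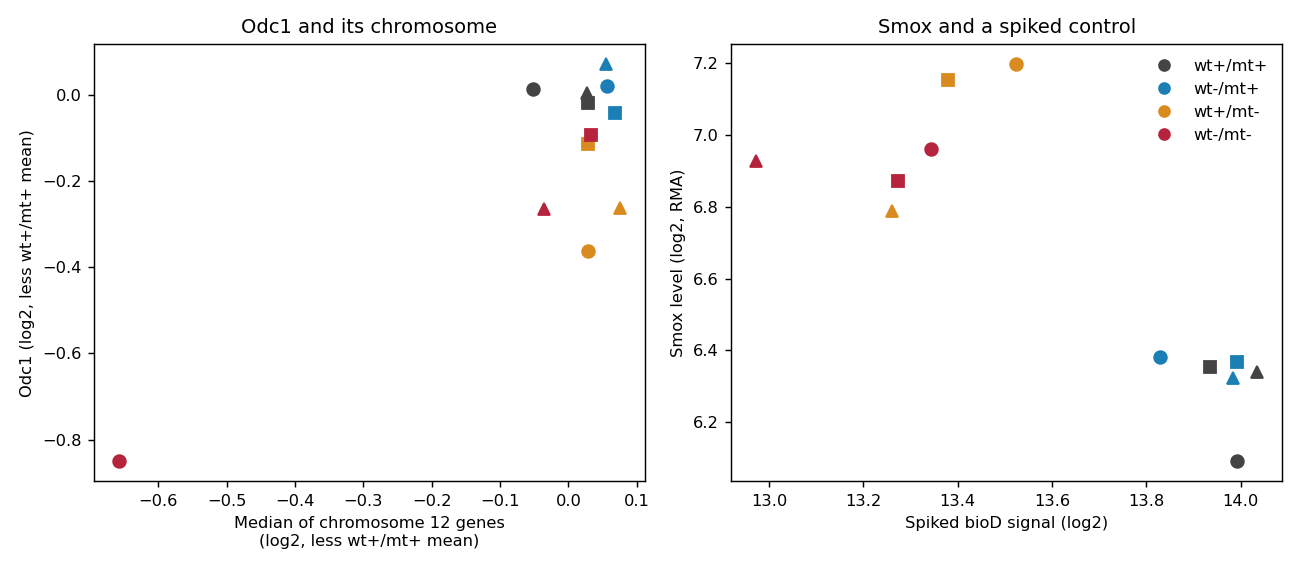
Left, deviation of Odc1 from its wt+/mt+ mean (y axis, log2) against the median deviation of 416 chromosome 12 genes (x axis, log2); right, Smox level (log2) against the spiked control bioD (log2), 1 point per array. On the left wt-/mt- replicate 1 stands alone at -0.66 and -0.85, and on the right the 6 mt- arrays have both higher Smox and lower bioD than the 6 mt+ arrays.

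The shared Sms and Sms-ps probe sets were all lowest in the same wt-/mt- array, replicate 3. The brightest gave 11.46, 11.63 and 11.74 in wt+/mt+, 11.54, 11.72 and 11.62 in wt-/mt+, 10.97, 11.40 and 11.72 in wt+/mt-, and 11.78, 11.81 and 10.57 in wt-/mt-. The second lay between 10.10 and 10.29 in 11 arrays and at 8.82 in wt-/mt- replicate 3. The third, the dimmest, was 7.02, 6.94 and 6.10 in wt-/mt-, with the lowest value in the same array. Loss of both alleles changed the 3 sets by -0.22 (SE 0.29), -0.39 (SE 0.29) and -0.64 (SE 0.22, limma adjusted p = 0.0586), and none was called. Without wt-/mt- replicate 3 the values were 0.18, 0.066 and -0.34. Against wt-/mt+ the third set fell by 0.83 (SE 0.22, limma adjusted p = 0.0233), against 18.9% of 23752 probe sets called, and with 1 weight per genotype that call ended (adjusted p = 0.0626). Without wt-/mt- replicate 3 that difference was -0.53 (limma adjusted p = 0.0237). The X chromosome, which holds Sms and Sat1, had a median deviation between -0.031 and 0.0098 in the 3 wt-/mt- arrays.

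Smox, the spermine oxidase, was higher in every array without the mutant allele. Its level was 6.09, 6.35 and 6.34 in wt+/mt+, 6.38, 6.37 and 6.32 in wt-/mt+, 7.20, 7.15 and 6.79 in wt+/mt-, and 6.96, 6.87 and 6.93 in wt-/mt-. The lowest mt- array, at 6.79, stood above the highest mt+ array, at 6.38, a separation upward that 5.57% of genes showed. Without the mutant allele Smox rose by 0.79 where the wild-type allele was present (SE 0.12, 1.72-fold, limma adjusted p = 0.0393) and by 0.56 where it was absent (SE 0.12, 1.48-fold, limma adjusted p = 0.00933). Without both alleles it rose by 0.66 (SE 0.12, 1.58-fold, limma adjusted p = 0.00441). Losing the wild-type allele changed Smox by 0.097 with the mutant allele present (SE 0.12, limma adjusted p = 1.00) and by -0.13 without it (SE 0.12, limma adjusted p = 0.530), and the interaction was -0.22 (SE 0.17, limma adjusted p = 0.537). The difference wt-/mt+ minus wt+/mt- was -0.69 (SE 0.12, limma adjusted p = 0.0696), which was called without any 1 wt-/mt- array or wt+/mt- replicate 3.

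The Smox probe set was dim, close to the array medians in the mt+ arrays, and a second Smox probe set, at a mean of 3.66, did not pass the filter. The rise without both alleles and that of the mutant-allele loss without the wild-type allele each held in 21 of 22 alternatives, and ended with 1 weight per genotype (adjusted p = 0.0604 and 0.104). The rise with the wild-type allele present held in 10 of 22. It ended without any 1 of the wt+/mt+ arrays, the wt-/mt+ arrays or wt+/mt- replicates 1 and 2. The actin 3' to 5' ratio, a sign of RNA quality, stood at 2.17 (log2) on wt+/mt- replicate 1 and at 1.71 on replicate 2 of that genotype, against 1.06 to 1.29 elsewhere. Without both of these arrays the rise was 0.53 (limma adjusted p = 0.763), resting on 1 array assumed to vary like the other groups. The spiked hybridisation control bioD was also split by the mutant allele, at 12.97 to 13.52 on the mt- arrays against 13.83 to 14.04 on the mt+ arrays, as were bioC (10.85 to 11.35 against 11.61 to 11.80), cre (14.95 to 15.09 against 15.20 to 15.25) and the labelling control lys (7.30 to 8.18 against 5.77 to 7.26). The part of these differences in the Smox values was not tested. Other spiked controls overlapped between mt- and mt+ arrays: bioB (9.49 to 10.01 against 9.64 to 9.81), dap, phe and thr. The mutant allele split the 12 arrays in the same way as bioC, bioD, cre, lys and the array medians, and cannot be told apart from them here. This limit holds for every comparison of mt- with mt+ arrays. It covers those given for Srm, Odc1, Oaz2, the shared Oaz1 set and the pathway genes.

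**Figure D3:**
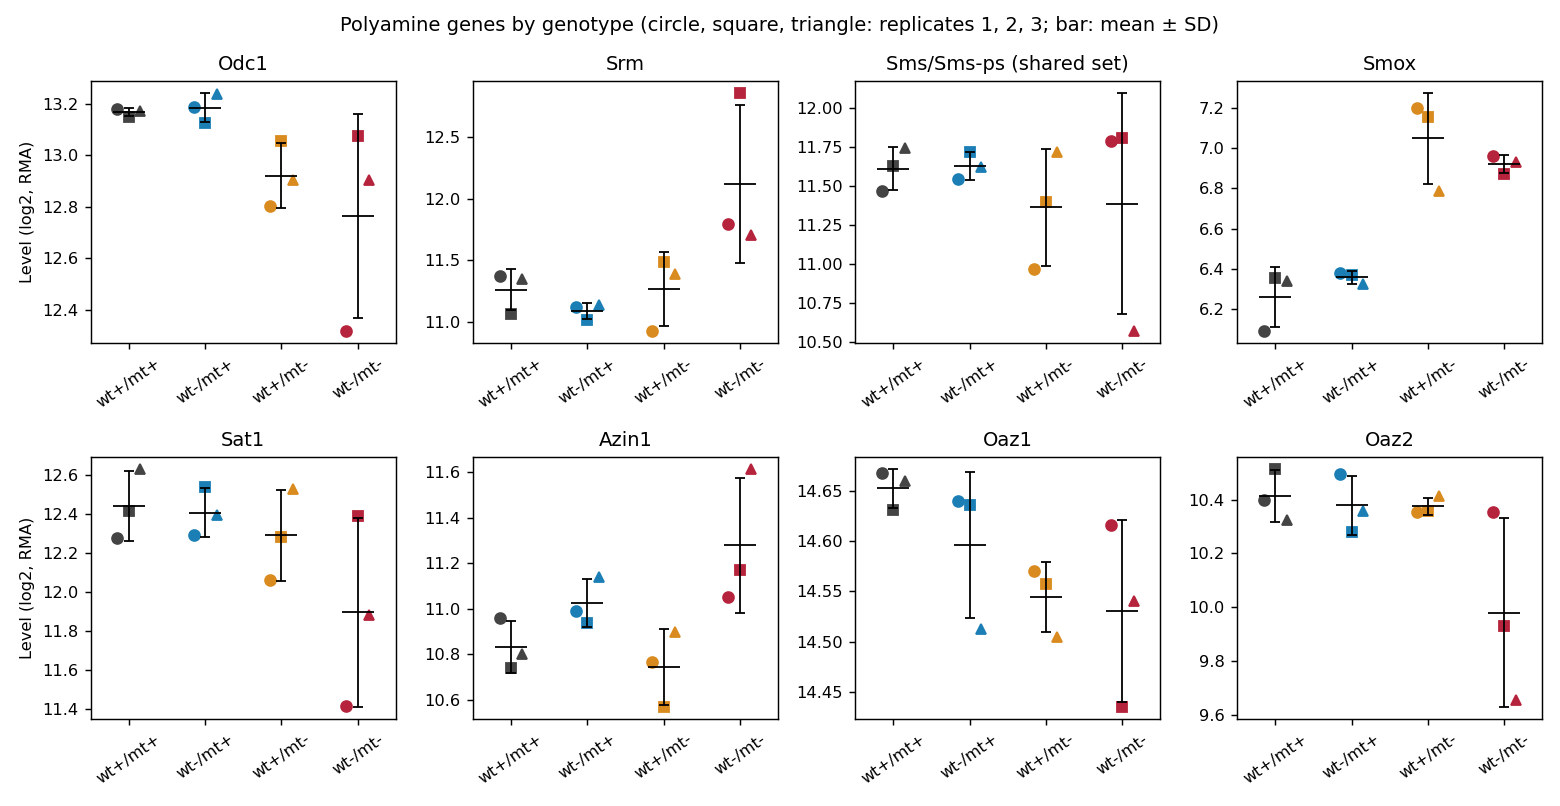
Log2 level (y axis) of polyamine genes in the 4 genotypes (x axis), 1 panel per gene; circles, squares and triangles are replicates 1, 2 and 3, and bars are the mean and SD of 3 arrays. Smox is higher in both mt- genotypes, at 6.79 to 7.20 against 6.09 to 6.38, while Srm is higher in wt-/mt- alone, with 1 array at 12.85.

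Sat1, the acetyltransferase that opens polyamine breakdown, was lowest in 2 wt-/mt- arrays and was not called. Its level was 12.27, 12.41 and 12.63 in wt+/mt+, 12.29, 12.54 and 12.39 in wt-/mt+, 12.06, 12.28 and 12.52 in wt+/mt-, and 11.42, 12.39 and 11.88 in wt-/mt-. Replicate 2 of wt-/mt- lay within the range of the other genotypes. Loss of both alleles gave -0.54 (SE 0.21, limma adjusted p = 0.0897), and without that replicate -0.79 (limma adjusted p = 0.0115).

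Azin1, which frees ornithine decarboxylase from antizyme, was highest in wt-/mt- on average. Its brightest probe set gave 10.96, 10.74 and 10.80 in wt+/mt+, 10.99, 10.94 and 11.14 in wt-/mt+, 10.77, 10.57 and 10.90 in wt+/mt-, and 11.05, 11.17 and 11.62 in wt-/mt-. The wt-/mt- arrays overlapped wt-/mt+ and lay above the other 6. The share of all genes with this pattern was not counted, so the pattern says nothing particular of Azin1. Azin1 rose by 0.54 over wt+/mt- (SE 0.15, 1.45-fold, limma adjusted p = 0.0373) and differed by 0.45 from wt+/mt+ (SE 0.15, limma adjusted p = 0.0535). The rise over wt+/mt- held in 8 of 23 alternatives, where it lay between 0.36 and 0.65. It ended without wt+/mt+ replicates 2 or 3, any wt-/mt+ array, wt+/mt- replicates 1 or 2, or wt-/mt- replicate 3, and without both arrays of high actin ratio it was 0.38 (limma adjusted p = 0.536). The second bright probe set gave 0.36 for it (SE 0.21, limma adjusted p = 0.297) and 0.49 for loss of both alleles (SE 0.21, limma adjusted p = 0.114), and the third, at a mean of 5.45, did not pass the filter.

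Oaz1, the broadly expressed antizyme, varied least of the 7 members in wt-/mt- after Smox, with an SD of 0.091. All its 12 values lay between 14.43 and 14.67, and no comparison called it, with changes between -0.12 (SE 0.086, limma adjusted p = 0.320) after loss of both alleles and 0.052. The probe set shared with Oaz1-ps gave 13.94, 13.94 and 14.00 in wt+/mt+, 13.95, 14.12 and 14.02 in wt-/mt+, 13.52, 13.68 and 13.86 in wt+/mt-, and 13.92, 13.84 and 13.64 in wt-/mt-. Its 6 mt- arrays lay below the 6 mt+ arrays by a narrow margin, as 3.36% of probe sets did, and its change without both alleles was -0.16 (SE 0.12, limma adjusted p = 0.340).

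Oaz2, the second antizyme, gave different answers with different probe sets. The set that stands for the gene read 10.40, 10.51 and 10.32 in wt+/mt+, 10.50, 10.28 and 10.36 in wt-/mt+, 10.36, 10.36 and 10.41 in wt+/mt-, and 10.35, 9.93 and 9.66 in wt-/mt-. Only wt-/mt- replicates 2 and 3 lay below the rest, and the change without both alleles was -0.43 (SE 0.15, limma adjusted p = 0.0619). The gene was called lower in 4 alternatives: with arrays centred on their medians, with the mean of all its probe sets (-0.37, limma adjusted p = 0.0333), with its set of largest variance (-0.74, limma adjusted p = 0.00675), and without wt-/mt- replicate 1 (-0.62, limma adjusted p = 0.00387). A second set read 8.73, 8.82 and 8.93 in wt+/mt+, 8.85, 9.04 and 8.98 in wt-/mt+, 8.45, 8.33 and 8.46 in wt+/mt-, and 8.41, 8.10 and 7.76 in wt-/mt-. Here all 6 mt- arrays lay below all 6 mt+ arrays, one of the 3.36% of probe sets that did. The controls bioC, bioD, cre and lys split the arrays in the same way.

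That second Oaz2 set fell by 0.74 without both alleles (SE 0.15, limma adjusted p = 0.00648), where 21% of probe sets were called. It fell by 0.87 when the mutant allele was lost without the wild-type allele (SE 0.15, limma adjusted p = 0.00289), and differed by -0.42 when it was lost with the wild-type allele present (SE 0.15, limma adjusted p = 0.221). Without each wt-/mt- array in turn the fall without both alleles lay between -0.90 and -0.58 and was called each time, as it was with 1 weight per genotype (adjusted p = 0.0219). The third set, at a mean of 7.20, changed by 0.064 (SE 0.13). Which transcript each set reads was not resolved here.

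**Figure D4:**
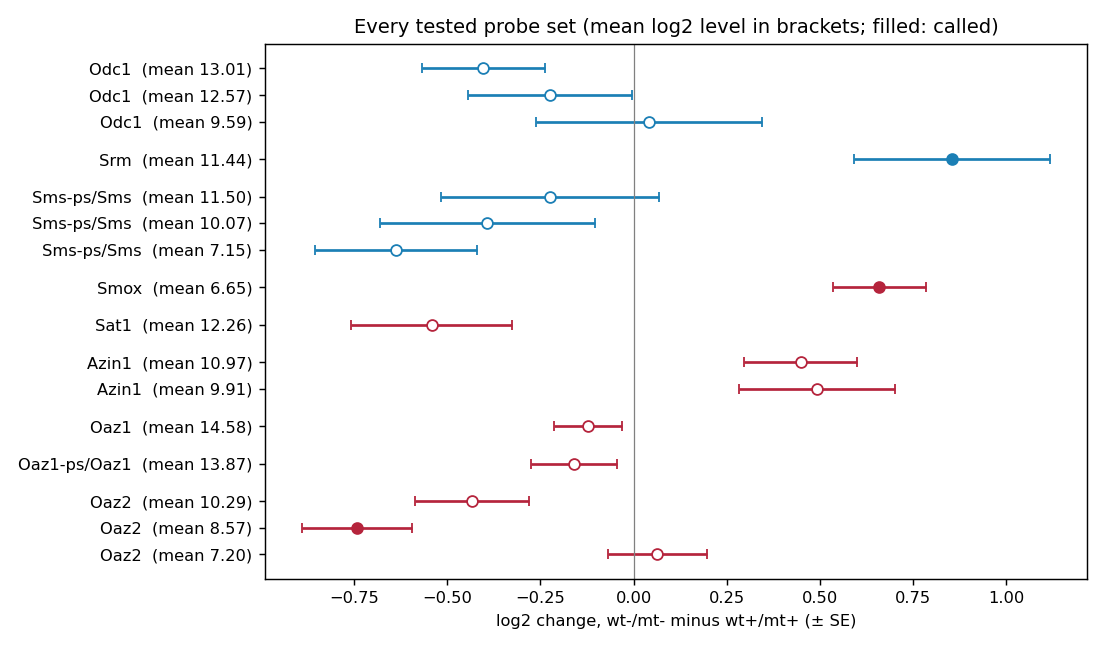
Log2 change from wt+/mt+ to wt-/mt- (x axis, SE as bars) for each tested probe set of the polyamine genes, those shared with Sms-ps and Oaz1-ps included. Filled points were called over 23752 probe sets, for Srm as a description only. Probe sets of 1 gene disagree for Odc1 (-0.40, -0.22 and 0.041) and Oaz2 (-0.74, -0.43 and 0.064).

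Set side by side, the 2 synthesis enzymes read showed no shared direction, but a difference in direction between them was not established. The 3 Odc1 probe sets gave -0.40, -0.22 and 0.041 after loss of both alleles, none called. The median change of Odc1 and Srm minus that of the 5 catabolic and regulatory genes was 0.35 after loss of both alleles, 0.47 for the wild-type allele lost without the mutant allele and 0.37 for the reverse. With 2 genes the synthesis median is their mean. Their estimates had opposite signs, that of Odc1 called in none of these comparisons, so these values are those of Srm pulled down by Odc1. In the 3 wt-/mt- arrays the same difference was -0.12, 0.80 and 0.20. Without replicate 2, where Srm was highest, it was 0.039, 0.19 and 0.060 in those comparisons, and with the brightest Sms set counted beside them it was -0.10, 0.15 and -0.17. In wt+/mt- and wt-/mt+ against wt+/mt+, and in wt-/mt+ minus wt+/mt-, it was -0.033, -0.045 and -0.0091. After loss of both alleles its sign thus turned with the Sms set counted.

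Genes next to the members in the pathway were read from a list of 27, drawn up with earlier results known, of which 25 were named on the array and 19 tested. Loss of both alleles raised 3 and lowered 1 of the 19, against 22.1% of all genes called, with a median change of 0.084. An unadjusted p under 0.05 was found for 5, with no share over all genes counted beside it. Eif5a, the translation factor that carries hypusine made from spermidine, rose by 0.41 (SE 0.091, limma adjusted p = 0.0105), from 14.46, 14.39 and 14.49 to 14.78, 14.95 and 14.86. Enoph1, an enzyme of the methionine salvage pathway that recycles the by-product of spermidine and spermine synthesis, rose by 0.56 (SE 0.14, limma adjusted p = 0.0164). Its levels went from 9.45, 9.40 and 9.47 to 9.68, 10.25 and 10.09. Oat, ornithine aminotransferase, rose by 0.50 (SE 0.16, limma adjusted p = 0.0426), a call that held in 8 of 23 alternatives. Mat2b, a regulatory subunit of the enzyme that makes S-adenosylmethionine, fell by 0.81 (SE 0.14, limma adjusted p = 0.00364), from 11.79, 11.80 and 11.76 to 10.66, 11.24 and 11.03, and stayed called in 23 of 23. For these 4 genes the wt-/mt- arrays did not overlap the wt+/mt+ arrays, but they were named because this comparison called them. The share of all genes without such overlap was not counted, so this adds nothing to the calls. The count of called pathway genes was 2 without wt+/mt+ replicate 2.

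Against wt+/mt-, where 14.6% of all genes were called, 2 of the 19 pathway genes rose and 2 fell, Eif5a by 0.39 and Enoph1 by 0.83 upward and Mat2b by 0.68 and Adi1, another salvage enzyme, by 0.51 downward; Adi1 was named after its values were seen. That count was 2 without wt+/mt- replicate 1 or 2, 0 without both, and 7 without wt-/mt- replicate 1. The fall of Adi1 against wt+/mt- stayed called in 14 of 23 alternatives, where it lay between -0.64 and -0.17. Adi1 lies on chromosome 12, as Odc1 does. Its lowest wt-/mt- level, 10.12, was in replicate 1, whose chromosome 12 median was -0.66. Centring each chromosome moved the interaction of Adi1 from -0.25 to 0.20, neither called. The part of chromosome 12 in the fall of Adi1 was not tested. Against wt-/mt+, where 20.8% of all genes were called, Eif5a (0.55) and Enoph1 (0.73) rose and Mat2b fell by 0.76, 3 of 19. That count was 5 and 6 without wt-/mt- replicates 1 and 3. In both single losses 0 of 19 were called by limma and 0 had an unadjusted p under 0.05, and between wt-/mt+ and wt+/mt- the counts were 0 and 2. The interaction called 1 of 19, Enoph1, at 1.00 (SE 0.20, limma adjusted p = 0.0229), against 3.14% of genes. It was 0 without any 1 of 7 arrays (the wt+/mt+ arrays, wt-/mt+ replicates 2 and 3, and wt+/mt- replicates 1 and 2), and 3, 3 and 2 without wt-/mt- replicates 1, 2 and 3.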

How the data were processed

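RNA was measured on 12 Affymetrix mouse arrays, 3 per genotype. The authors deposited 1 log2 value for each probe set and array. They used RMA, per the submitters' processing notes, with the version not given. RMA normalizes across arrays, so a shift shared by most genes is largely removed. The log base was taken from RMA's usual output and the range of the values. Scanner files were not used here.

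Of 45101 probe sets, 34958 were named to 1 gene by GEO's platform annotation, 932 to several and 9211 to none; symbols were updated through a RefSeq table of GRCm38.p6, and 13 control sets were left out. A gene was read from its probe set with the highest mean, kept if above the array median in at least 3 arrays. The test was limma 3.58.1 under R 4.3.3 (1 mean per genotype over all 12 arrays, eBayes, Benjamini-Hochberg over 11457 genes), and probe sets in a second fit over 23752. The script was tested on simulated data. Array numbers give no pairing. Alternatives changed the scaling, filter, probe set, weights, arrays and groups fitted.

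The members and lists were chosen with earlier results of these data known. Named genes were Foxo1, the members, the pathway genes called after loss of both alleles, and the 5 genes most correlated with Srm and with Odc1; Adi1 was added after its values were seen. Precision is limited by 3 arrays per genotype.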

Additional observations from a re-analysis of the deposited data

Results flagged for a closer look

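The interaction of both losses was called for Enoph1, the salvage enzyme, at 1.00 (SE 0.20, limma adjusted p = 0.0229), so losing the wild-type allele changed it differently with and without the mutant allele: by -0.17 with it and by 0.83 without it. The change without it stayed positive between 0.71 and 0.99 in 23 alternatives, and the interaction stayed between 0.88 and 1.16 in 22, of which 12 were called. For Foxo1 the interaction was -1.71 (SE 0.33, limma adjusted p = 0.0226), with changes of -0.18 and -1.88 for the same losses.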

How the results depend on the processing

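No result changed direction while called on either side. With 1 weight per genotype, polyamine genes called in wt-/mt- against wt+/mt+, against wt+/mt- and against wt-/mt+, and in wt-/mt+ against wt+/mt-, were 0, 0, 1 and 1 (against 2, 1, 2 and 0); with only the groups compared they were 1, 0, 1 and 1. With the actin ratio as covariate, or without both high-actin wt+/mt- arrays, the first count was 1, the second 0, and that of wt+/mt- against wt+/mt+ 0 (against 1). That last count was also 0 with genes above the median in all 12 arrays and with each chromosome centred, and 0 with the mean of all probe sets, where Smox did not pass the filter and was not tested; the second count was 2, 0 and 0 with the all-array filter, the mean of probe sets and the set of largest variance. Leaving out each array gave 1 to 4, 0 to 3, 1 to 4, 0 to 1 and 0 to 1 for wt-/mt- against wt+/mt+, wt+/mt- and wt-/mt+, for wt+/mt- against wt+/mt+, and for wt-/mt+ against wt+/mt-.

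Pathway genes called after loss of both alleles numbered 1 with weights, 1 with only the groups compared and 2 with chromosomes centred (against 4). Against wt+/mt- they were 1 with weights, 1 with the actin covariate, 0 without both high-actin arrays and 0 with only the groups compared (against 4), and against wt-/mt+ 5 with chromosomes centred and 1 with only the groups compared (against 3). Between wt-/mt+ and wt+/mt- 1 was called with weights and 1 with only the groups compared (against 0), and for the interaction 0 with the set of largest variance, the actin covariate or without the high-actin arrays (against 1). Leaving out each array gave 2 to 6, 2 to 7, 3 to 6, 0 to 1 and 0 to 3.

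The synthesis minus regulatory median of 0.35, 0.47 and 0.37 became -0.10, 0.15 and -0.17 with the Sms set counted, and the second was 0.18 with the actin covariate. Leaving out each array gave 0.039 to 0.58, 0.19 to 0.69 and 0.060 to 0.60. The cause of these moves was not tested. Over all genes, 2534, 1671, 2381, 21, 0 and 10 calls became 866, 399, 923, 950, 19 and 835 with weights and 815, 115, 519, 574, 53 and 393 with only the groups compared; the second was 287 with the actin covariate and 118 without the high-actin arrays. Chromosome centring, the Sms set and the fits of single probe sets were chosen after seeing the data. No paired analysis was possible because the array numbers run from 1 to 12 and no number is shared between genotypes. The main fit shared a single spread among the genotypes, although the wt-/mt- arrays varied most. A call against wt-/mt- can therefore be too easily reached, and a call in the other comparisons too easily missed. With weights the calls fell in the former and rose in the latter. With 3 arrays per genotype and the wide wt-/mt- spread, a missed threshold does not show that a gene did not differ.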
